A study of Mus musculus with 14 samples.

Results

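The genes described here are the interferon-responsive families on a mouse expression array: the Irf transcription factors and Stat2, the antiviral Ifit, Oas, Mx, Rsad2, Bst2, Isg20 and Usp18 genes, the guanylate-binding proteins (Gbp) and immunity-related GTPases (Irgm, Igtp, Iigp1), the Ifitm membrane proteins and the remaining genes whose symbol starts with Ifi. They were chosen by symbol alone, as probe sets that name 1 gene of these families, and none by its measured values. The rule found 68 probe sets for 53 genes, of 20380 probe sets and 12393 genes that the array names singly. A probe set is a group of short probes that reads 1 transcript. Of the 68, 62 probe sets for 49 genes passed the filter on low signal and were tested. The other 6 were the single probe sets of Oas1c, Oas1h, Gbp8 and Mx2, 1 of 4 for Irf3 and 1 of 3 for Ifi44l, and no change is given for them. A further 8 probe sets name several genes at once, among them 1 that names Isg15, and were left out.

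RNA came from whole inguinal mammary glands (the fourth pair) of untreated female mice of the outbred CD1 strain, after the lymph nodes had been cut away, and each array carried RNA pooled from 3 or more mice. The groups are ages in weeks, written 3wk to 7wk. There were 14 arrays: 5wk has 2, lettered A and B, and each other age has 3, lettered A to C. All groups share the strain, the sex and the lack of treatment, and the labels name no interferon and no infection. Values are ratios to the median that the probe set had across the 14 arrays: 1 is the median, ratios compare ages within a probe set, and they carry no level from gene to gene. P-values measure the spread between pools, and the number of arrays limits the precision. In a whole gland, fewer cells of a type and less RNA per cell cannot be told apart.

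Interferons are secreted proteins by which cells warn each other of viruses and other intruders. Type I interferons act through the receptor Ifnar1 with Ifnar2, Jak1 and Tyk2, and a complex that includes Stat2 and Irf9 and binds the interferon-stimulated response element (ISRE). Interferon gamma acts through Ifngr1 with Ifngr2 and on genes with a gamma-activated site (GAS). Irf1, Irf3, Irf5, Irf7 and Irf8 are further factors that act on overlapping sets of genes. The targets include enzymes that block viral RNA, GTPases that attack the vacuoles of intracellular microbes, and membrane proteins that hinder viral entry. Macrophages, dendritic cells and lymphocytes of the mammary stroma and epithelium express many of these genes without infection.

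The promoters of the members that the results turn on show how far these elements are shared. RefSeq promoter windows, 250 bases before the start site to 50 after it on build GRCm38.p6, were at hand for 41 of the 53 genes. The ISRE core was searched as GAAANNGAA and the GAS as TTCNNNGAA, both strands each. The second motif reads the same on both strands, and matches of the 2 motifs may overlap. The ISRE core was present in the first window of 20 of 41 member genes (48.8%), against 2317 of 27025 genes with a window (8.57%). The GAS was present in 15 of 41 member genes (36.6%), against 2288 of all 27025 (8.47%). Of the GTPases, 7 of 8 windows held the ISRE core and 3 held a GAS, of the antiviral genes 8 of 13 and 4, of the transcription factors 2 of 9 and 3, and of the Ifitm genes 2 of 5 and 2. A match is a run of letters and shows no binding.

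The 160 bases before the start site follow for 4 GTPase genes, since Gbp3 and Gbp7 were called and Igtp and Irgm2 stand beside them in the group. They lie at chr3:142530176-142530335 and chr3:142559884-142560043 for Gbp7 and Gbp3, and at chr11:58199396-58199555 and chr11:58214817-58214976 for Igtp and Irgm2, all on the plus strand of GRCm38.p6. Letters run 5′ to 3′ along the gene, and capitals mark ISRE core and GAS matches. Igtp and Irgm2 are neighbours whose stretches share a run of 38 identical bases, which ends in the first letters of the GAS match, and in both the GAS match is followed closely by the ISRE core.
Gbp7: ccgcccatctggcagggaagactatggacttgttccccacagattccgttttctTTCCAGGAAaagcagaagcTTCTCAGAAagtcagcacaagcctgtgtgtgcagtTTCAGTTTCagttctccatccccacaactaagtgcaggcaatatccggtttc
Gbp3: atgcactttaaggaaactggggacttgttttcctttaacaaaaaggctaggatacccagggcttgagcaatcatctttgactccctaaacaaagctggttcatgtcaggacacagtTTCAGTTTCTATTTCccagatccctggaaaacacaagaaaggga
Igtp: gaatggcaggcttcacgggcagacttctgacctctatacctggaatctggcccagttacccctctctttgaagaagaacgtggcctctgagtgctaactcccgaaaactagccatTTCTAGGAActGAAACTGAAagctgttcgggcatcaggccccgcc
Irgm2: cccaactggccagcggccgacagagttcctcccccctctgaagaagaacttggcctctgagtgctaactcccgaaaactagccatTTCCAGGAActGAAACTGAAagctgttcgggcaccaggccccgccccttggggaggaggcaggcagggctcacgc

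The same stretch is shown for 4 further members to set their letters beside the GTPases. Rsad2 (chr12:26456453-26456612, minus strand) and Ifit3 (chr19:34583369-34583528, plus strand) are antiviral genes with ISRE cores. Irf8 (chr8:120736198-120736357, plus strand) has GAS letters and no ISRE core. Ifitm1 (chr7:140967916-140968075, plus strand), the member that was higher at the later ages, has neither motif in its window.
Rsad2: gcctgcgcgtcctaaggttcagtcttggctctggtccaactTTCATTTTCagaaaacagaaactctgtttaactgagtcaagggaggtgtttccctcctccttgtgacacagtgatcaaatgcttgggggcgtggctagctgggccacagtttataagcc
Ifit3: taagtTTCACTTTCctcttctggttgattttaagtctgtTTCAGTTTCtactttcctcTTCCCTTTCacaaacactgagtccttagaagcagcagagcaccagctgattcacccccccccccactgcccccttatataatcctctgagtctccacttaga
Irf8: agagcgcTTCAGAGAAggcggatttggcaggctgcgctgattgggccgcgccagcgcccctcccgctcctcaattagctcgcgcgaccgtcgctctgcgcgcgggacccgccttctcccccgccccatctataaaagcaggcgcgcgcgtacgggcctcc
Ifitm1: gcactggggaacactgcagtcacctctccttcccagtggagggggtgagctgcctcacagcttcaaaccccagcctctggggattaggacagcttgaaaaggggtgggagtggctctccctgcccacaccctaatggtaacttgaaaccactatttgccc

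Few members changed with age by the test across all probe sets. Each of 18535 probe sets was fitted with limma on log2 ratios, and a probe set is called where its adjusted p is under 0.05. The F test over the 5 ages called 2 of 62 member sets (3.23%), Ifi27l2a and Gbp7, where 10.3% of all sets were called. At 7wk against 3wk, 6 members were called (9.68%), 5 of them lower at 7wk, where 8.51% of all sets were called and 2.59% were called lower. At 6wk against 3wk, 5 members were called (8.06%), 4 of them lower at 6wk, where 13.6% of all sets were called and 4.54% were called lower. At 5wk against 3wk, 1 member was called, Ifi27l2a, where 3.62% of all sets were called. The shares of members called are near the background or below it in every one of these comparisons. The share called lower is 8.06% at 7wk, with Ifi27l2a, Gbp3, Iigp1 and 2 sets of Rsad2.

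No member was called between 4wk and 3wk, or between any week and the week before. With limma's unadjusted p under 0.05, 8 members passed at 4wk against 3wk, where 0.151% of all sets were called and 10.2% passed unadjusted. From 5wk against 4wk, 9 passed, where 0.75% of all sets were called and 14.9% passed unadjusted. From 6wk against 5wk, 5 passed, where 0.281% were called and 10.5% passed unadjusted. From 7wk against 6wk, 6 passed, where 0.955% were called and 14% passed unadjusted.

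The direction of the members differed from that of the array as a whole. At 7wk the median change from 3wk was -0.19 on the log2 scale over the 62 members and 0.08 over all tested sets, and 38 of 62 members (61.3%) were below 0, against 41.4% of all. The 3 arrays at 7wk lay wholly below the 3 at 3wk for 19 members, where this held for 9.82% of all sets, and wholly above them for 4, where this held for 18.5%. The age with the highest mean was 3wk for 25 of 62 members (40.3%), against 17.4% of all sets. The lowest mean was at 4wk for 19 members (30.6%), against 17% of all sets, and at 7wk for 17 (27.4%), against 15.6%. At 4wk 45 of 62 members (72.6%) were already below 0, against 43.6% of all. The 4wk medians were -0.16 over members and 0.05 over all. At 6wk the medians were -0.17 over members and 0.07 over all, and the member median was -0.03 without 3wk C and -0.07 without 6wk A and B together. Role groups contributed unequally, as the plot of role means by array shows.

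**Figure D1:**
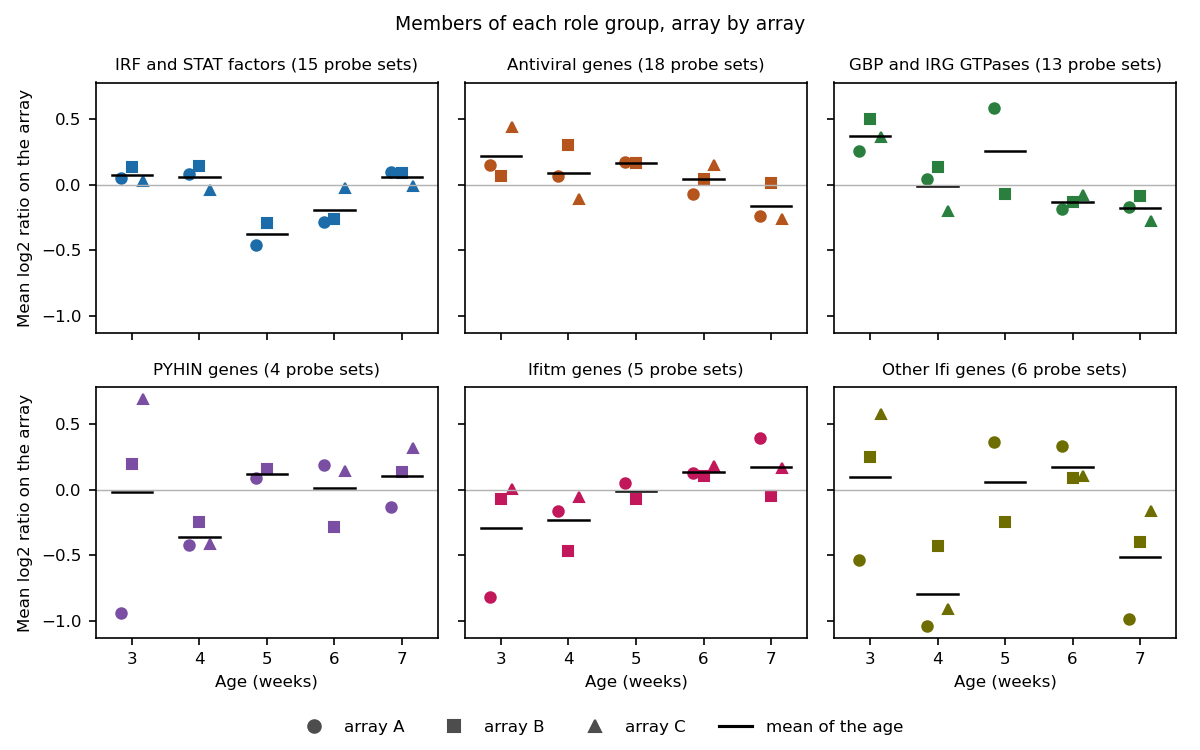
Mean log2 ratio of the tested probe sets of each role group (vertical axis) on each array, by age in weeks. Points are arrays A, B and C, bars the mean of an age. The GTPases are above 0 on the 3 arrays at 3wk and on 5wk A (0.58), and below 0 on the 6 arrays at 6wk and 7wk. Ifitm means run from -0.81 on 3wk A to 0.39 on 7wk A.

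Most GTPase sets were below their 3wk level at every later age, 4wk included, and few of them were called. Gbp proteins coat and break the vacuoles of microbes, and the IRG proteins Iigp1, Igtp, Irgm1 and Irgm2 mark and attack them or control that attack. At 7wk, 12 of 13 sets were below 3wk with a median of -0.60, and at 6wk 12 of 13 with a median of -0.38. Of all tested sets, 41.4% were below 0 at 7wk and 43.9% at 6wk. Of the 13, which cover 10 genes, 2 were called lower at 7wk and 1 at 6wk. Among all sets, 2.59% were called lower at 7wk and 4.54% at 6wk. The group averaged 0.37 ± 0.12 on the log2 scale over the arrays of 3wk (SD, n = 3, and 2 for 5wk). It averaged -0.01 ± 0.17 for 4wk and 0.25 ± 0.46 for 5wk, then -0.13 ± 0.05 for 6wk and -0.18 ± 0.09 for 7wk. The 7wk arrays (-0.27 to -0.09) and the 3wk arrays (0.26 to 0.50) do not overlap.

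Gbp7 was lowest at 6wk on 1 of its 2 probe sets. On 1425156_at the ratios were 1.25, 1.76 and 1.37 at 3wk, 0.965, 1.51 and 0.984 at 4wk, 1.23 and 1.15 at 5wk, 0.555, 0.655 and 0.578 at 6wk, and 0.83, 1.02 and 0.956 at 7wk. The 3 arrays at 6wk lie below every other array. The change was -1.28 (SE 0.19) at 6wk against 3wk, with a limma adjusted p of 0.00184, and its F test had an adjusted p of 0.0106. The call at 6wk held in all 25 alternatives, and that of the F test was lost with the actin covariate (0.0632) and without 6wk A and B together (0.108). At 7wk the change was -0.64 (SE 0.19), which was not called (0.0651). On the second set, 1434380_at, the means were 0.934 at 6wk, 0.886 at 7wk and 1.22 at 3wk, so 6wk is not its lowest age. It gave -0.38 (SE 0.17) at 6wk and -0.45 (SE 0.17) at 7wk and was not called.

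Gbp3 had its highest values at the early ages. Its ratios were 1.42, 2.6 and 1.4 at 3wk, 1.74, 1.05 and 1.23 at 4wk, 1.8 and 0.683 at 5wk, 0.749, 0.952 and 0.889 at 6wk, and 0.792, 0.566 and 0.783 at 7wk. All 7wk arrays lie below all 3wk arrays, and the 2 arrays at 5wk fall on either side of the median. Gbp3 fell by 1.29 (SE 0.36, limma adjusted p 0.0459) at 7wk against 3wk. That call is close to the threshold: it was lost in 17 of 25 alternatives, with leaving out any array of 3wk, 4wk, 6wk or 7wk among them, and adjusted p ran from 0.0192 to 0.186.

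Iigp1 is read by 2 sets. On 1419043_a_at the ratios were 1.81, 2.14 and 1.53 at 3wk, 1.17, 1.02 and 0.862 at 4wk, 2.66 and 0.99 at 5wk, 0.964, 1.01 and 0.951 at 6wk, and 0.812, 0.953 and 0.902 at 7wk. Apart from 5wk A, no array of a later age reached the 3wk values. The set fell by 1.03 (SE 0.29, limma adjusted p 0.0494) at 7wk against 3wk, and this call was lost in 19 of 25 alternatives, leaving out any array of 3wk, 4wk, 6wk or 7wk among them. Adjusted p ran from 0.00449, without 5wk A or without 5wk B, to 0.141, without 3wk B. On 1419042_at the 7wk change was -0.58 (SE 0.25) and was not called.

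The other GTPase sets were not called. At 7wk against 3wk the changes were -0.66 (SE 0.26) for Irgm2, -0.64 (SE 0.24) for Igtp, -0.60 (SE 0.25) for Gbp6, -0.60 (SE 0.20) and -0.25 (SE 0.26) for the sets of Gbp2, -0.41 (SE 0.20) for Ifi47 and -0.20 (SE 0.15) for Irgm1. Only Gbp2b stood above 0 (0.17, SE 0.19). In 9 of the 13 sets the 7wk arrays lie wholly below the 3wk arrays, where this held for 9.82% of all sets.

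The antiviral group leaned the same way with smaller values, and not all of its sets fell. Against 3wk, 13 of 18 sets were below 0 at 4wk (median -0.14), 10 at 5wk (median -0.04), 12 at 6wk (median -0.17) and 15 at 7wk (median -0.26). As shares these are 72.2%, 55.6%, 66.7% and 83.3%, where the whole array had, in the same order, 43.6%, 45.9%, 43.9% and 41.4%. The lean was thus smallest at 5wk. The 2 called sets, both lower at 7wk, where this held for 2.59% of the array, belong to Rsad2. Rsad2 is the enzyme viperin, which makes a nucleotide that stops viral RNA synthesis. On 1436058_at the ratios were 1.34, 1.14 and 1.92 at 3wk, 1.07, 1.7 and 0.75 at 4wk, 0.996 and 1.17 at 5wk, 0.757, 0.896 and 1 at 6wk, and 0.682, 0.587 and 0.564 at 7wk. The 7wk arrays are the 3 lowest of the 14. The change at 7wk was -1.23 (SE 0.28, limma adjusted p 0.0192).

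The second called Rsad2 set, 1421009_at, changed by -0.97 (SE 0.26, limma adjusted p 0.0453), with 0.537, 0.731 and 0.559 at 7wk and 1.15, 0.91 and 1.56 at 3wk. The 2 ages do not overlap on it. The other Rsad2 set, 1421008_at, gave -0.54 (SE 0.34) and was not called. The call on 1436058_at was lost without 3wk C (adjusted p 0.0654), 7wk B (0.0612) or 7wk C (0.0658), with the hybridisation covariate (0.135) and on the mean of the 3 sets (-0.91, 0.0516). The call on 1421009_at was lost in 15 of 25 alternatives, with adjusted p from 0.0223 to 0.259. Leaving out 3wk A or C, 4wk A, either 5wk array, 6wk A or C or any 7wk array was among them.

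Ifit3 and Bst2 lay just outside the threshold. Ifit3, which binds viral RNA together with Ifit1, had 0.643, 0.75 and 0.715 at 7wk and 1.1, 1.42 and 1.71 at 3wk, a change of -0.98 (SE 0.29, limma adjusted p 0.0627). Bst2, the tetherin that holds budding viruses on the cell, had 0.696, 0.811 and 0.877 at 7wk and 1.11, 1.44 and 1.68 at 3wk, a change of -0.81 (SE 0.25, adjusted p 0.0743). In both genes the ages do not overlap, and neither was called. Ifit3 was called in 5 of 25 alternatives (lowest adjusted p 0.0248) and Bst2 in 4 (lowest 0.0262), without 4wk B among them for both. Ifit1 gave -0.47 (SE 0.23) and Oas2 -0.48 (SE 0.22), also not called.

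Other antiviral genes gave wide or small values at 7wk against 3wk. Usp18, which strips the ubiquitin-like protein Isg15 from its targets and damps the receptor, gave -0.33 (SE 0.28). Mx1, a GTPase against influenza-like viruses, gave 0.38 (SE 0.37), and its highest ratio was 2.25 on 5wk A. Mx2 stayed under the signal filter. Ifih1, the sensor of long double-stranded RNA, gave -0.16 (SE 0.21). Oas1b spanned 0.832 on 5wk A to 3.52 on 4wk A, and its change of -1.13 had an SE of 0.69. Ifit2 and Isg20 were higher at 6wk than at 3wk, by 1.29 (SE 0.56) and 0.55 (SE 0.22), and were not called. At 7wk against 3wk they gave -0.02 (SE 0.56) and 0.37 (SE 0.22).

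Ifi27l2a was the member that separated 3wk most sharply from every later age. It encodes a small mitochondrial and nuclear membrane protein of the interferon-inducible Ifi27 family. Its ratios were 1.64, 1.62 and 1.72 at 3wk, 0.988, 1.09 and 1.05 at 4wk, 0.997 and 0.786 at 5wk, 0.978, 1.05 and 0.892 at 6wk, and 0.911, 1 and 0.853 at 7wk. The 3 arrays at 3wk agree closely and stand above all 11 others. It fell by 0.91 (SE 0.14, limma adjusted p 0.00597) at 5wk, by 0.77 (SE 0.13, 0.00301) at 6wk and by 0.85 (SE 0.13, 0.00239) at 7wk, each against 3wk. The F test gave an adjusted p of 0.00562. These calls held in all 25 alternatives but for 5wk against 3wk without 5wk B, where the change was -0.74 and the adjusted p 0.0732. At 4wk against 3wk the change was -0.67 (SE 0.13, adjusted p 0.0781) and was not called.

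The remaining Ifi genes moved less evenly. Ifi44l, read by 2 tested sets, ran from 0.0815 on 7wk A to 4.22 on 6wk C on 1425917_at, and it was the member with the widest spread within ages (SD 1.55 on the log2 scale). Its changes at 7wk against 3wk were -1.40 (SE 1.13) and -0.88 (SE 0.86). Both sets were low on 3wk A, 4wk A, 4wk C and 7wk A, so arrays of the same age disagree. Ifi27l2b gave -0.44 (SE 1.09), Ifi35 -0.24 (SE 0.19), and Ifi30, the lysosomal thiol reductase used in antigen processing, 0.14 (SE 0.17). None of them was called.

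**Figure D2:**
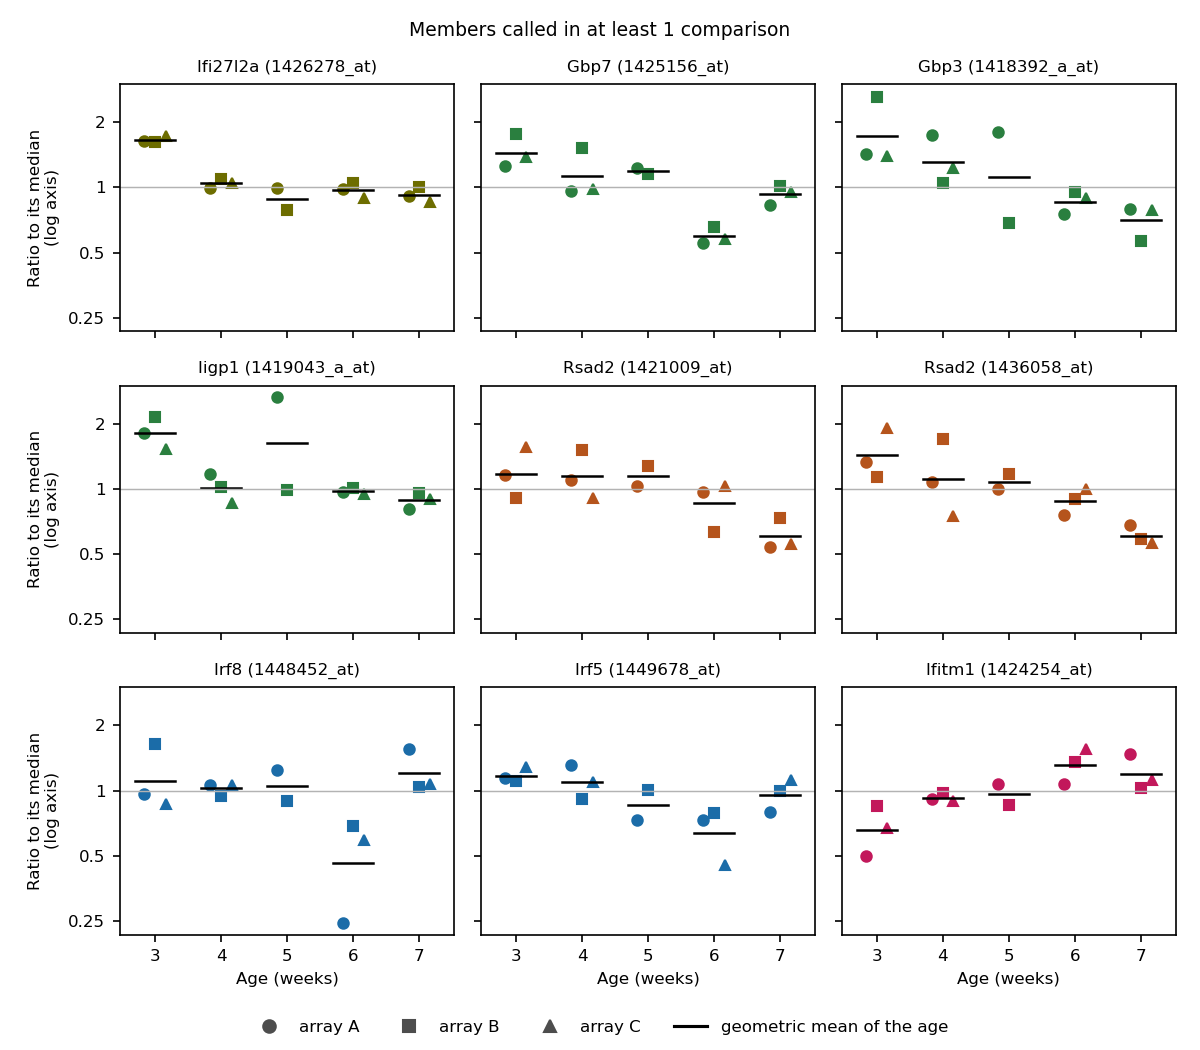
Ratio of each probe set to its median (vertical axis, log scale) by age in weeks for the 9 sets called in 1 comparison or more. Points are arrays A, B and C and bars the geometric mean of an age. Ifi27l2a is high at 3wk alone, Gbp7 1425156_at low at 6wk, both Rsad2 sets lowest at 7wk, and Ifitm1 lowest at 3wk.

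The transcription factors did not follow the GTPases. At 7wk against 3wk, 5 of 15 sets were below 0 (median 0.13) and none was called by limma, with 2 lower and 0 higher at an unadjusted p under 0.05. Of all 18535 sets, 41.4% were below 0 at 7wk, and 1425 were lower and 2775 higher at that unadjusted p. At 5wk 13 of 15 sets were below 0 (median -0.27), and at 6wk 10 of 15 (median -0.13). Of all sets, 45.9% were below 0 at 5wk and 43.9% at 6wk. The group averaged 0.07 ± 0.06 on the log2 scale for 3wk and 0.06 ± 0.09 for 4wk (SD, n = 3, and 2 for 5wk). It averaged -0.38 ± 0.12 for 5wk, -0.19 ± 0.14 for 6wk and 0.06 ± 0.06 for 7wk. The 5wk and 6wk arrays but for 6wk C lie below all others. The mean was -0.46 on 5wk A and -0.29 on 5wk B, where the medians over the 15 sets were -0.29 and -0.08. The means include Irf4 1421174_at at 0.0752 on 5wk A and Stat2 1421911_at at 0.175 on 5wk B. Both readings were under the level that the filter on low signal uses.

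The 2 calls among the factors were both lower at 6wk, where 4.54% of all sets were called lower. Neither was shared by the second set of its gene. Irf5, which drives inflammatory genes in macrophages and dendritic cells, had on 1449678_at 0.728, 0.792 and 0.452 at 6wk and 1.14, 1.11 and 1.28 at 3wk. The ages do not overlap, and the change was -0.88 (SE 0.23, limma adjusted p 0.0305). The second Irf5 set, 1460231_at, gave 0.07 (SE 0.31), of the opposite sign. The call was lost in 7 of 25 alternatives, which were leaving out any 3wk array or 6wk C, quantile normalization, the block on the letters and the mean of the 2 sets, with adjusted p up to 0.281.

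Irf8, a factor that macrophages and dendritic cells need to develop, had on 1448452_at 0.244, 0.689 and 0.592 at 6wk and 0.963, 1.64 and 0.87 at 3wk. The 6wk arrays are the 3 lowest of the 14, with 6wk A far below the others. The change was -1.26 (SE 0.37, limma adjusted p 0.0429). Without 6wk A it was -0.80 (adjusted p 0.111), and 18 of 25 alternatives lost the call. Leaving out any other array but 6wk B and 7wk A was among those 18, with adjusted p up to 0.292. The second Irf8 set, 1416714_at, gave -0.04 (SE 0.16).

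The other factors were not called in any comparison. Irf7, the factor that amplifies type I interferon, had 0.884, 0.877 and 1.04 at 7wk and 1.37, 1.29 and 2.2 at 3wk, a change of -0.76 (SE 0.27, limma adjusted p 0.115) without overlap. Irf1 gave 0.15 (SE 0.21), Irf2, which competes with Irf1, 0.51 (SE 0.31), and Irf9 0.26 (SE 0.20). The 3 tested sets of Irf3 gave -0.55, 0.14 and 0.17, so they differ in sign. Stat2 gave -0.17 (SE 0.22) and -0.27 (SE 0.57).

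Irf4, which lymphocytes and plasma cells use, stood out on 1 array. On 1421174_at its ratio was 0.0752 on 5wk A and 0.997 on 5wk B, and between 0.643 and 1.58 on the 12 arrays of other ages. The reading on 5wk A was under the level that the filter on low signal uses, so its size is uncertain. The change of this set at 5wk against 3wk was -1.97 (SE 0.76) and was not called. Without 5wk B that low reading alone stands for 5wk, so the fit cannot decide whether Irf4 was lower at this age. On 1421173_at the ratios at 5wk were 0.565 and 0.735, the change -0.64 (SE 0.26). Irf2bp1 matches the rule by symbol only, as a corepressor that binds Irf2. It gave 0.40 (SE 0.15) at 7wk and was not called.

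**Figure D3:**
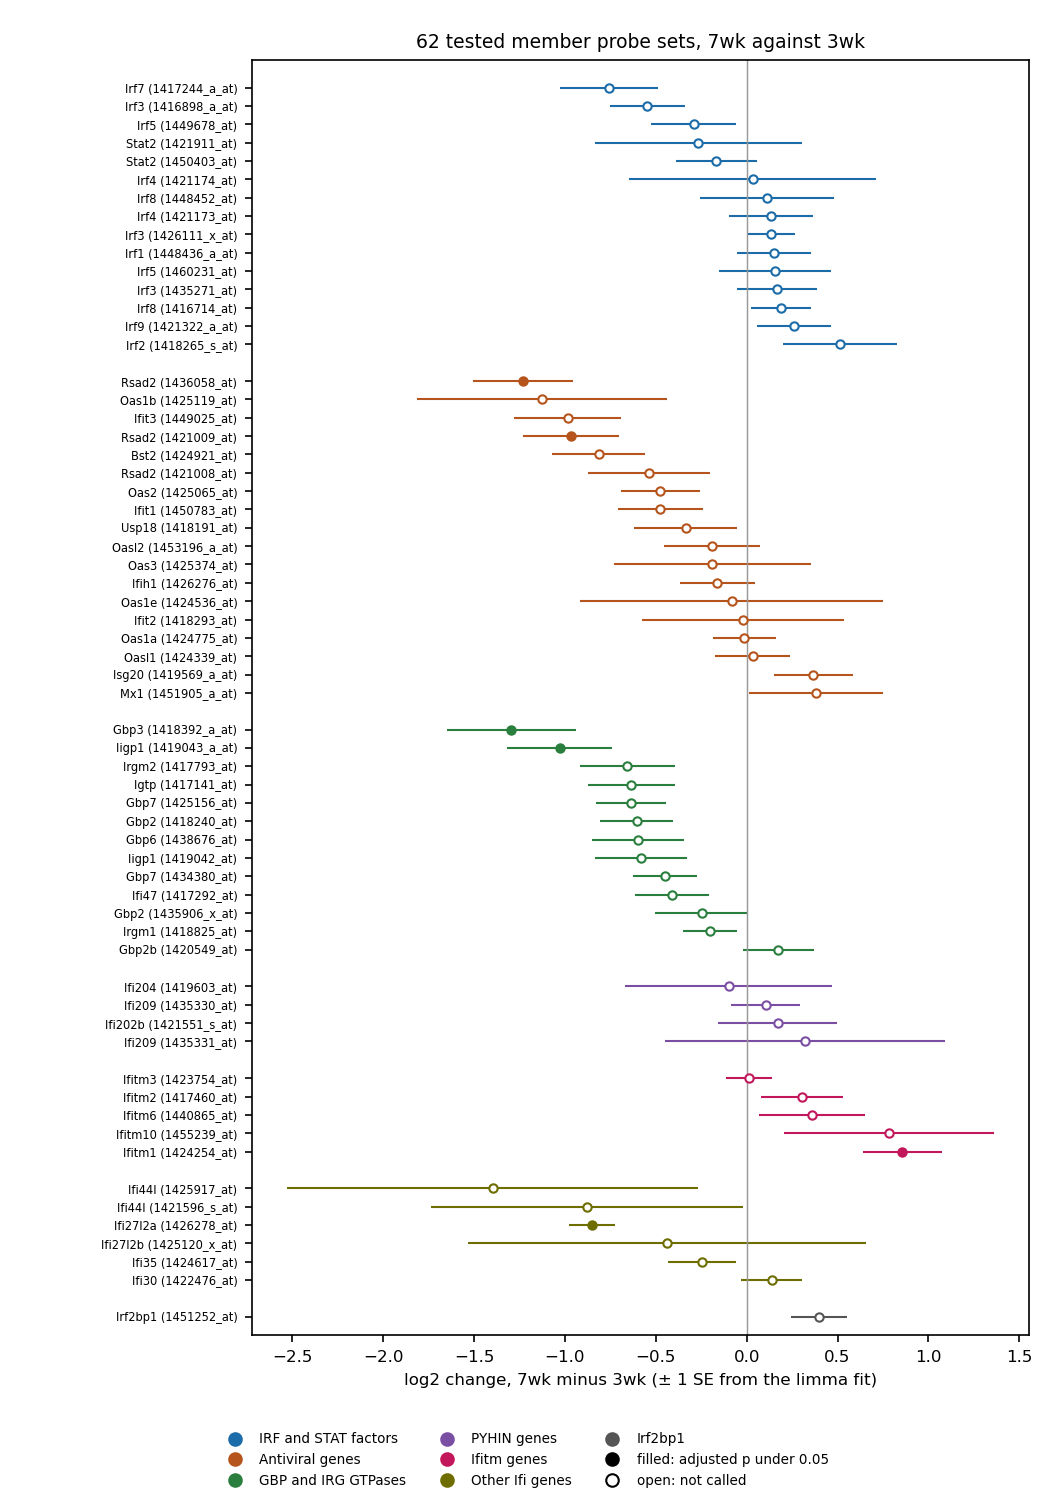
Log2 change at 7wk minus 3wk (horizontal axis) with 1 SE from the limma fit, for the 62 tested member sets by role. Filled points are called (adjusted p under 0.05). Of 13 GTPase sets 12 lie below 0, of 18 antiviral sets 15, of 15 factor sets 5, and of 5 Ifitm sets 0.

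The Ifitm genes stood on the other side. They code for small membrane proteins that hinder the fusion of viruses. At 7wk against 3wk 0 of 5 sets were below 0 (median 0.36), against 41.4% of all sets. Ifitm1 was the sole member of 62 called higher, where 1684 of all 18535 sets were called higher at 6wk and 1098 at 7wk. Its ratios were 0.498, 0.853 and 0.67 at 3wk, 0.914, 0.973 and 0.892 at 4wk, 1.08 and 0.857 at 5wk, 1.07, 1.35 and 1.55 at 6wk, and 1.47, 1.03 and 1.12 at 7wk. All arrays of the later ages lie above the 3 at 3wk, 5wk B (0.857) just above 3wk B (0.853). It rose by 0.99 (SE 0.22, limma adjusted p 0.013) at 6wk and by 0.86 (SE 0.22, 0.033) at 7wk, each against 3wk.

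The call of Ifitm1 at 7wk was lost without 3wk A (0.66, adjusted p 0.1), 3wk C (0.87, 0.0735), 7wk A (0.70, 0.12) or 7wk C (0.90, 0.0719), and with the hybridisation covariate (0.286) and the block on the letters (0.0581). That at 6wk held without any single array, and was lost with the actin covariate (1.11, 0.111) and without 6wk A and B together (1.24, 0.0593). Ifitm10 gave 0.78 (SE 0.58), Ifitm6 0.36 (SE 0.29), Ifitm2 0.30 (SE 0.23) and Ifitm3 0.01 (SE 0.13) at 7wk, and none was called. The mean of the group on 3wk A (-0.81) lies below that on 3wk B (-0.07) and 3wk C (0.01).

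The PYHIN genes, whose proteins bind DNA, gave no call. At 7wk the changes were 0.17 (SE 0.33) for Ifi202b, -0.10 (SE 0.57) for Ifi204, and 0.32 (SE 0.77) and 0.10 (SE 0.19) for the sets of Ifi209. On 1435331_at Ifi209 ran from 0.174 on 3wk A to 2.49 on 3wk C, so its extremes are arrays of 1 age. The PYHIN genes are close copies of each other, and their signals may be shared between them.

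**Figure D4:**
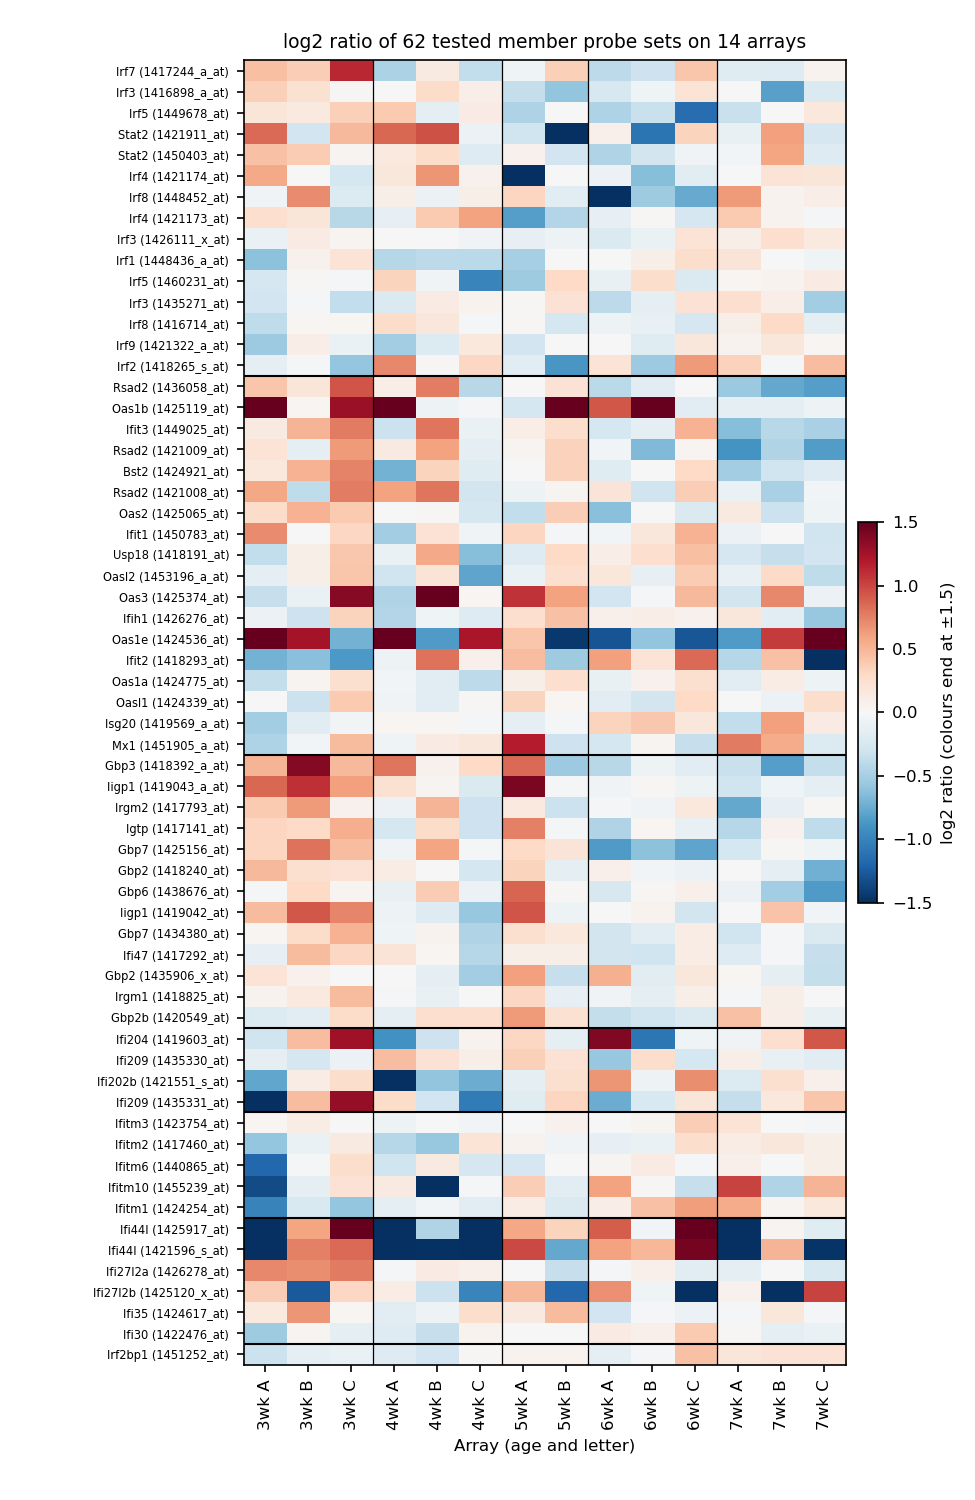
Log2 ratio of the 62 tested member sets (down the page, by role) on the 14 arrays, from blue (low) to red (high), with colours ending at 1.5 either way. The GTPase block is red at 3wk and on 5wk A, and the Ifi44l sets alternate between arrays of the same age.

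The 2 arrays at 5wk disagreed on the GTPases. On 5wk A all 13 sets were above their median, with a mean of 0.58, the highest of the 14 arrays. On 5wk B 5 of 13 were above it, with a mean of -0.07. Iigp1 had 2.66 on 5wk A and 0.99 on 5wk B, Igtp 1.7 and 0.981, and Gbp6 1.83 and 1.01. The mean of the antiviral group did not show this gap, at 0.17 on 5wk A and 0.16 on 5wk B, with medians of 0.07 and 0.25. Single antiviral sets differed both ways, with Mx1 at 2.25 on 5wk A and 0.809 on 5wk B, and Oas1b at 0.832 and 3.51.

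Of 4 tested chemokine genes, 3 that interferon gamma induces were high on the same array. Cxcl9 had 2.67 on 5wk A and 0.787 on 5wk B. Cxcl10 had 2.55 and 0.197, and Cxcl11 4.75 and 1.19. For these 3, 5wk A is the highest of the 14 arrays. The other, Ccl5, had 1.43 on 5wk A and 0.47 on 5wk B, and was highest on 3wk B (2.79). Irf1, another target of interferon gamma, had 0.709 on 5wk A. The natural killer marker list also had its highest mean on 5wk A (0.42, against 0.04 on 5wk B), and the T cell list did not (-0.68 and -0.82). Their part in the GTPase values was not tested. Without 5wk A or without 5wk B the F test called 5 and 6 members in place of 2, with both sets of Iigp1 and Gbp3 among them in each. The lone 5wk array is then assumed to vary like the other ages.

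Members with an ISRE core in the promoter window and those without it differed in direction. At 7wk against 3wk, 21 of 25 sets of genes with the core were below 0 (median -0.47), and 7 of 26 sets of genes with a window and no core (median 0.14). Of 11 sets of genes with no window, 10 were below 0 (median -0.48). At 6wk the numbers were 17 of 25 (median -0.26), 13 of 26 (median 0.00) and 10 of 11 (median -0.62). Role and motif go together here, since most GTPase windows hold the core and most factor and Ifitm windows do not, and the shares are a description with no test.

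**Figure D5:**
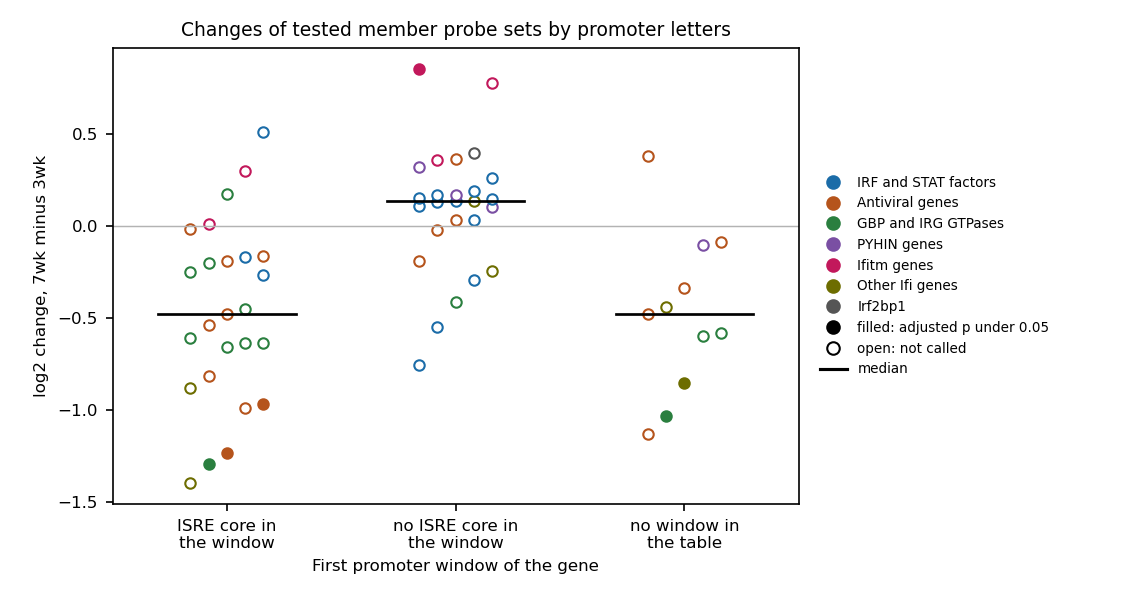
Log2 change at 7wk minus 3wk (vertical axis) of 62 tested member sets, by whether the first RefSeq promoter window of the gene holds the ISRE core. Points are probe sets coloured by role, filled where called, and bars are medians (-0.47, 0.14 and -0.48). The 3 called sets with the core are Gbp3 and both sets of Rsad2.

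Interferon ligands, receptors and other pathway genes outside these families came from a list of 108 genes, of which 79 were tested on 130 sets. Calls at 7wk against 3wk numbered 9 upward and 1 downward (median -0.04), and those at 6wk 12 upward and 1 downward (median -0.03). Of the array's 18535 tested sets, 1098 had an upward call and 480 a downward call at 7wk, against 1684 and 841 at 6wk. Whether the list departs from this background was not tested. Of 5 tested ligand sets, all for type I interferons, none was called at 6wk or 7wk. Ifng stayed under the signal filter. None of the Ifnar1, Ifnar2, Ifngr1 or Ifngr2 sets was called, and Il10rb, a chain of the type III interferon receptor, was higher at 6wk (0.71, SE 0.19, limma adjusted p 0.0333). Among kinases and regulators, Socs3, an inhibitor of the kinases, was called higher at 7wk on 1 of 3 sets (0.85, SE 0.23, adjusted p 0.0469), and Ptpn2, a phosphatase that damps the pathway, on 1 of 3 (0.86, SE 0.21, adjusted p 0.0282).

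Of the 9 sets called higher at 7wk, 6 were genes of MHC class II, which present peptides to helper T cells. H2-Eb1 had 1.58, 1.77 and 2.07 at 7wk and 0.483, 0.526 and 0.24 at 3wk, a rise of 2.19 (SE 0.32, limma adjusted p 0.00213). Cd74, the invariant chain that guards the class II groove, had 1.5, 1.53 and 1.62 at 7wk and 0.337, 0.761 and 0.625 at 3wk, a rise of 1.51 (SE 0.27, adjusted p 0.00614). H2-Aa rose by 1.36 (SE 0.24, adjusted p 0.00648) on 1 of 2 sets and H2-Ab1 on all 3, by 1.10 to 1.65. Ciita, the switch of class II genes, had 1.68 (SE 0.62) and 0.07 (SE 0.22) and was not called.

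No class I gene was called higher. The H2-D1 sets 1452544_x_at, 1425614_x_at and 1427651_x_at had ratios of 19.4 to 32.6 on 3wk B, 7wk B and 7wk C. Elsewhere they were at most 1.81, so arrays of the same age disagree. Their 7wk changes were 1.22 to 1.46 (SE 1.35 to 1.53), those of the other H2-D1 sets -0.90 to -0.09, and none was called. A single H2-K1 set of 4 was called lower at 7wk (-0.39, SE 0.11, limma adjusted p 0.0496), and its signal may be shared with other class I genes. Psmb8, a subunit of the immunoproteasome, gave -0.46 (adjusted p 0.0516) and Tap1, which carries peptides into the endoplasmic reticulum, -0.51 (SE 0.18, adjusted p 0.108). Plscr1, a lipid scramblase that interferon induces, rose by 1.53 (SE 0.25, adjusted p 0.00362) at 7wk on 1429527_a_at, and its second set gave 0.66 (SE 0.30) and was not called. Trim25, which activates an RNA sensor, was lower at 6wk on 1 of 3 sets (-0.84, SE 0.16, adjusted p 0.00746) and back at 0.06 at 7wk.

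Markers of several cell types moved with age. All 10 tested luminal genes were called higher on every one of 16 sets at 7wk against 3wk (median 2.19), and the summed ratios ran from 21.5 to 23.1 at 7wk and from 2.97 to 6.22 at 3wk. Plasma cell sets were called higher in 8 of 12, white fat sets lower in 5 of 11 and brown fat sets lower in 9 of 13. Among all 18535 sets, 1098 were called higher and 480 lower. Of the dendritic list, 0 of 7 sets were called (median -0.31), with sums of 6.16 to 7.57 at 7wk and 7.98 to 8.44 at 3wk, which do not overlap. Of the macrophage list 1 of 17 was called higher, with sums of 17.8 to 20.3 at 7wk and 11.3 to 17.9 at 3wk, and 3wk A stood lowest of all arrays. The T cell sums ran from 7.29 to 28.6 at 7wk and from 4.84 to 26.7 at 3wk, with no set called at 7wk. The lymph node stroma sums ran from 3.46 to 5.77 at 6wk and from 12.4 to 24.9 at 3wk, which do not overlap, although the labels say that the nodes were removed. At 7wk they ran from 5.36 to 27.7, with 7wk B the highest of all arrays. Of the 6 sets of that list, 1 was called lower at 6wk and 0 at 7wk. The 5' to 3' ratio of actin was lowest at 6wk (mean -0.44, against 0.07 at 3wk), and that of pyruvate carboxylase too (-2.37, against -0.09), while the hybridisation controls were lowest at 7wk (-1.21, against 0.15). The part of these cell types and of RNA quality in the changes of the members was not tested.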

How the data were processed

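RNA of 14 pools of mammary glands was read on 1 array each. The deposited table gives, per the labels and its own values, each probe set as a ratio to its median over the 14 arrays. The sources used here do not give the signal software. A single gene is named by 20380 of 22690 probe sets, several by 691 and no gene by 1555, and 64 are controls. A step that divides all ratios of a set evenly was recovered in 8658 sets and gives a level, and 4091 of these under 200 steps on all arrays or all but 1 were left out. The other 18535 were taken as log2 ratios (floor 0.01) and fitted over all 5 ages with limma 3.58.1 in R 4.3.3, with Benjamini-Hochberg adjustment over all tested sets in each comparison and a threshold of 0.05. No normalization was added, since array medians of the ratios lay between 0.953 and 1.017. The fit was tested on simulated data. Tables were made with pandas 2.3.3 and numpy 2.4.6 under Python 3.11.15, and plots with matplotlib 3.10.9. The members, the pathway genes and the marker lists were chosen with earlier results of these data known. The text names each called member, the Irf factors and Stat2, Usp18, Rsad2, Bst2, Mx1 and Mx2, Irf2bp1, up to 4 members a role with the largest 7wk change, and pathway genes called in the F test or at 7wk. Other genes were named after their values were seen. Alternatives were other scalings, filters and offsets, a block on the array letters, covariates from control probes, means per gene and leaving out arrays.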

Additional observations from a re-analysis of the deposited data

How the results depend on the processing

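Of the 14 member calls, the 2 of the F test have no sign, and no other call reversed its sign under the alternatives run. Changes of uncalled members were not followed through them. The F test over the 5 ages called 2 members, 1 with the actin covariate, 1 without 6wk A and B together, and 2 to 6 when 1 array was left out, with 5 without 5wk A and 6 without 5wk B. At 6wk against 3wk 5 members were called, 8 under the stricter filter, 3 with the actin covariate, 3 without 6wk A and B together and 3 on gene means. Leaving out 1 array gave 3 to 8, with 3 without any of the 3wk arrays and 8 without 5wk A or 5wk B. At 7wk against 3wk 6 were called, 3 without a filter, 1 with the hybridisation covariate, 3 without 6wk A and B together and 3 on gene means. Leaving out 1 array gave 1 to 7, with 1 without 3wk C or 7wk C, 2 without 3wk A, 7wk A or 7wk B, and 3 without 6wk A or 6wk C. No member was called at 5wk against 4wk or 6wk against 5wk, and 0 to 2 when 1 array was left out, with 2 in each comparison without 5wk B. With a replicate block on the letters A to C, 3 members were called at 6wk and 6 at 7wk. The 6 are not the same sets: Gbp3, Iigp1, Rsad2 1421009_at and Ifitm1 lost their call, and Bst2, Gbp2, Gbp7 and Ifit3 gained one. Between ages, 26 same-letter correlations of deviations ran from -0.069 to 0.083 (median 0.015), none over 0.1. The 52 correlations between different letters ran from -0.117 to 0.088 (median -0.014). Of the 14 arrays, 8 correlated best with an array of their own letter. The labels do not say whether a letter marks a shared batch, and correlations this small do not settle it. The member median at 6wk against 3wk ran from -0.25 to -0.03 over all settings. The member median at 7wk against 3wk ran from -0.31 to -0.12 over all settings, and that of all sets from -0.01 to 0.13. Ifi27l2a in the F test and at 6wk and 7wk, and Gbp7 at 6wk, were called in all 25 alternatives, and each other member call was lost in 1 or more. The 3 arrays per age, 2 at 5wk, limit what can be detected.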
